A study of Mus musculus with 2 samples.

Results

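Transcripts of the insulin-like growth factor (IGF) system were described in the facial prominence of mouse embryos at embryonic day 14.5. The 10 members are the ligands Igf2 and Igf1, the receptors Igf1r and Igf2r, and the binding proteins Igfbp2 to Igfbp7. They were taken by name and matched by Ensembl identifier in the gene tables of both libraries, and all 10 of the 10 were found among 43346 Ensembl genes. Total RNA over 200 nt was profiled by a SMART-seq protocol, a full-length cDNA method for small inputs, from 10.0 ng of RNA with added spike-in RNAs in each library. The series has 1 group of 2 biological replicates of strain B6NCrl, with no treatment and no altered allele in the labels. Each replicate is labelled as the face of 1 pup, collected on its own day, while the sex label speaks of pooled males and females, so the number of embryos per library is uncertain. No condition can be compared. The replicates differ in embryo, collection day and library at once, which cannot be told apart, and values are therefore given with their spread and with no test between groups.

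In this system IGF1 and IGF2 bind the receptor kinase IGF1R, which activates PI3K, Akt and mTOR signalling and drives growth of the embryo. IGF2R, the mannose 6-phosphate receptor, takes up IGF2 and delivers it to lysosomes, while the binding proteins hold the ligands outside the cell until proteases release them. Igf2 and Igf2r are imprinted in the mouse, Igf2 being expressed from the paternal and Igf2r from the maternal allele in most tissues, and Igf2 is a main growth factor of the fetus.

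The windows below run from 250 bases before to 50 bases after a RefSeq start (build GRCm38.p6, strand of the gene). Those of Igf2 and Igf1 are shown because their transcripts were separated by their first exons. Igfbp4 is shown as the most abundant binding protein by the TPM of all transcripts. Capitals mark GGGCGG (or CCGCCC, its opposite strand), CCAAT (or ATTGG) and TATAAA, each searched on both strands. None of the marked motifs overlap one another in these windows.
Igf2, most upstream start, chr7:142666767-142667066, minus strand: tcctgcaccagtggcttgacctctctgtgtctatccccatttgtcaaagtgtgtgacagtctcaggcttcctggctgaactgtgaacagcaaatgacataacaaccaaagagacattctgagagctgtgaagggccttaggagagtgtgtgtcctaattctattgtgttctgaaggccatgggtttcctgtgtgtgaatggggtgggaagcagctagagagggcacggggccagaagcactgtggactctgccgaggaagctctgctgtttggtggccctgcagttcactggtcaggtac
Igf2, start in the P1 leader exon, chr7:142661222-142661521, minus strand: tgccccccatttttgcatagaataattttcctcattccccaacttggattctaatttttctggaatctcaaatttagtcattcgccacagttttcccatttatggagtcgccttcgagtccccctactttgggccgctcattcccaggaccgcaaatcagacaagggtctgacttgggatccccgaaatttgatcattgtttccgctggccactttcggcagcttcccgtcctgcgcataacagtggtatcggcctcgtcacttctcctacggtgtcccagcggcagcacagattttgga
Igf2, start in the P2 leader exon, chr7:142658755-142659054, minus strand: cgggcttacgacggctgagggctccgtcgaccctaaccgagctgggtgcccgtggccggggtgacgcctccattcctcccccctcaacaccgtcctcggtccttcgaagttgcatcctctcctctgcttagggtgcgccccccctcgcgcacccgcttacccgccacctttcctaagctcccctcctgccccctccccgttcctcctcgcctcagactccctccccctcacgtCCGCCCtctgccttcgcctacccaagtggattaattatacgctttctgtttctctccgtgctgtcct
Igf2, start of the P3 leader exon, chr7:142657447-142657746, minus strand: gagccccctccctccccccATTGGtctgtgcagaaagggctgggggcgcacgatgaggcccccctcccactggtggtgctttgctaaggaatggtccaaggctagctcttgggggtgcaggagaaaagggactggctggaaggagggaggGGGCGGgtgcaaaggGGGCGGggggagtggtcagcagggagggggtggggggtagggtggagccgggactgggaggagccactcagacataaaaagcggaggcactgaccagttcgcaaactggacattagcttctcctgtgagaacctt
Igf1, start in leader exon 2, chr10:87860861-87861160, plus strand: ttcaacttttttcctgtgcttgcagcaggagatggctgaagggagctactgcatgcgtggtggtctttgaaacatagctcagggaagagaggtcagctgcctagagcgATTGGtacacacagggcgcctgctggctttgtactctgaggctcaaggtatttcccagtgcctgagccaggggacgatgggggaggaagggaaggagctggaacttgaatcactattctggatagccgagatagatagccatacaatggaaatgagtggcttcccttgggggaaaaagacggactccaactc
Igfbp4, chr11:99040994-99041293, plus strand: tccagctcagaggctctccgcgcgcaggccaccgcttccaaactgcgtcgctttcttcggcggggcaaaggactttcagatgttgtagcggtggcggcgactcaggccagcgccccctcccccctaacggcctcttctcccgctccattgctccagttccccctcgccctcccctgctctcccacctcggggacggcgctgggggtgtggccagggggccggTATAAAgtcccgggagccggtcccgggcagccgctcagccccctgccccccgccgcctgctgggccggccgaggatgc
The Igf2 windows were unlike one another in base composition. The P2 window lies wholly inside the P2 leader exon of the models used below (chr7:142658364-142659489), so it is exon sequence in that annotation. The window at the most upstream start held 2 CpG dinucleotides at 52.3% GC and no marked motif, and the P1 window held 14 CpG dinucleotides at 49.7% GC. The P2 window held 24 CpG dinucleotides at 64.7% GC with 1 GGGCGG motif, and the P3 window held 7 at 63.3% GC with 2 GGGCGG motifs and 1 CCAAT motif. Among all 32851 promoter windows of the RefSeq table the median was 52.7% GC and 7 CpG dinucleotides. GGGCGG was in 35.7% of those windows, CCAAT in 37.4% and TATAAA in 13.6%. Igfbp4 held TATAAA at position -28 from its start, where a TATA box commonly lies, and the Igf1 window held 1 CCAAT motif. The Igf1 window likewise lies wholly inside leader exon 2 (chr10:87860030-87861385), and none is shown for leader exon 1. A match is a string of letters and no measure of binding.

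The library of replicate 1 held 30919488 expected counts, which are estimated reads per gene, and that of replicate 2 held 37738872. The spike-in share of counts was 3.22% for replicate 1 against 5.43% for replicate 2. At an effective length of 2000 bases, 3 counts, the most that a count of 0 allows, come to 0.0761 TPM in replicate 1 and, at its greater depth, 0.0589 TPM in replicate 2, where TPM is the length-normalised transcript abundance. Intervals and floors are at the 95% level and cover counting error only. All 6 facial mesenchyme markers were expressed, summing to 224 TPM in replicate 1 against 209 TPM in replicate 2. Markers of cartilage summed to 759 and 438 TPM in replicates 1 and 2, those of bone to 3648 and 4586 TPM, and those of skeletal muscle to 3392 and 4858 TPM, so these markers were not equally represented in both libraries. The 4 endothelial markers summed to 118 and 108 TPM, all 4 placental markers had 0 counts in both, and of the 6 liver markers none reached 1 TPM in both libraries.

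All 10 members were expressed, at 1 TPM or more in both libraries, where 63.9% of 21474 named protein-coding genes were. Together they held 2983 TPM in replicate 1 against 2769 TPM in replicate 2, which was 0.365% and 0.359% of all protein-coding TPM. The binding proteins summed to 1611 TPM in replicate 1 against 1463 TPM in replicate 2, the ligands to 1303 and 1242 TPM, and the receptors to 68.6 and 63.7 TPM. Binding protein transcripts thus outnumbered ligand transcripts 1.24 to 1 in replicate 1 and 1.18 to 1 in replicate 2. These sums take in noncoding models of Igf2 and Igfbp4, given below. In bulk tissue, fewer cells of a type and less RNA per cell cannot be told apart, and this holds for every level below.

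**Figure D1:**
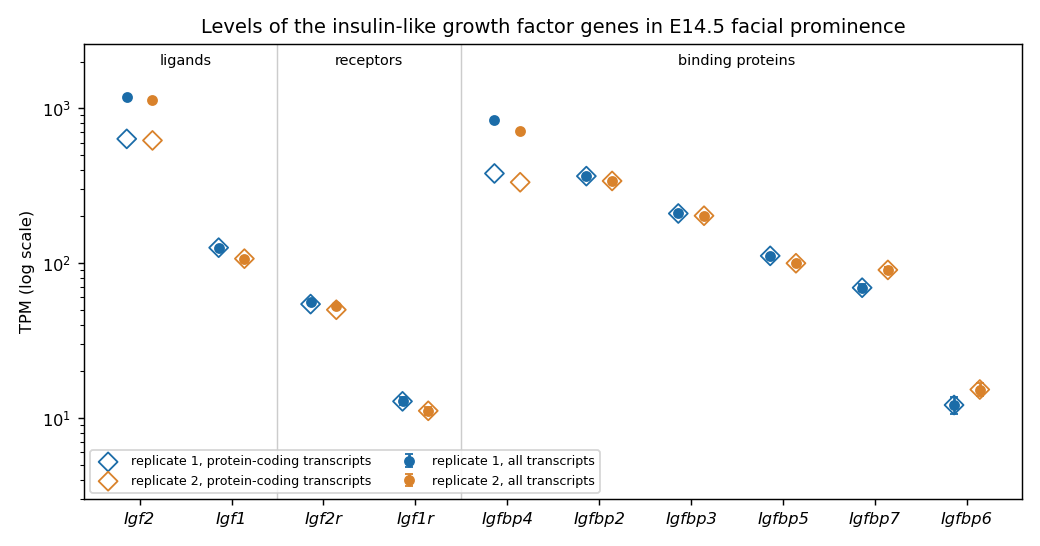
TPM of each member on a log axis, by role, with replicate 1 left of replicate 2. Filled circles are all transcripts of the gene with their counting intervals, and open diamonds are its protein-coding transcripts. Igf2 and Igfbp4 are the highest by all transcripts, and are also the members whose diamonds lie well below their circles.

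Igf2, the fetal growth factor (chr7:142650766-142666816, minus strand, build mm10 as for all gene and exon positions), had 1178 TPM in replicate 1 against 1136 TPM in replicate 2, a mean of 1157 ± 29.7 (SD, n = 2). It ranked 73 among protein-coding genes by the TPM of all transcripts. The counts behind it were 32436 and 40977, and the counting interval ran from 1165 to 1191 TPM in replicate 1 and from 1125 to 1147 TPM in replicate 2. The libraries were close together, with Igf2 slightly higher in replicate 1.

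Igf1, which in the embryo acts as a local growth factor (chr10:87858265-87937042, plus strand), had 126 TPM in replicate 1 against 107 TPM in replicate 2, a mean of 116 ± 13.4 (SD, n = 2). Igf2 took 90.4% of ligand TPM in replicate 1 and 91.4% in replicate 2. The ratio of Igf2 to Igf1 was 9.36 and 10.6 by TPM, but 2.47 and 2.85 by expected counts. TPM divides by length and counts do not: the authors' deposited table gives Igf1 a mean length of 5397 bases in replicate 1, against 1496 bases for Igf2. Both the share and the ratios take in noncoding models of Igf2. From protein-coding models alone Igf2 had 634 and 620 TPM against 126 and 107 TPM for Igf1, a smaller lead by TPM.

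Igf2r, the clearance receptor for IGF2 (chr17:12682406-12769664, minus strand), had 55.8 TPM in replicate 1 against 52.6 TPM in replicate 2, a mean of 54.2 ± 2.26 (SD, n = 2). Igf1r, the signalling receptor (chr7:67952827-68233668, plus strand), had 12.8 TPM in replicate 1 against 11.1 TPM in replicate 2, a mean of 12.0 ± 1.19 (SD, n = 2). Igf2r transcripts were thus 4.36 and 4.73 times as abundant per length as those of Igf1r. For Igf1r the scale has a limit, since the deposited tables count it over a model of 4489 bases, while the later annotation gives the same transcript 11409 bases.

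Igfbp4, a secreted inhibitor of IGF action that the protease PAPPA cleaves (chr11:99041244-99054392, plus strand), led the binding proteins with 844 TPM in replicate 1 against 715 TPM in replicate 2. Its mean was 780 ± 90.9 (SD, n = 2), and it held 52.4% of binding protein TPM in replicate 1 and 48.9% in replicate 2. By the TPM of all transcripts it ranked 134 among protein-coding genes, so that Igf2 and Igfbp4 were the 2 members among the top 1% of these. A noncoding model held 55.01% of Igfbp4 TPM in replicate 1 and 53.4% in replicate 2, as given below. Ranks from protein-coding models alone were not computed.

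Igfbp2 and Igfbp5 are neighbours on chromosome 1 and differed in level. Igfbp2, a carrier that binds IGF2 well (chr1:72824503-72852474, plus strand), had 365 TPM in replicate 1 against 339.5 TPM in replicate 2, a mean of 352 ± 17.8 (SD, n = 2). Igfbp5, which binds to the extracellular matrix and bone mineral (chr1:72857932-72874884, minus strand), had 112 TPM in replicate 1 against 99.96 TPM in replicate 2, a mean of 106 ± 8.23 (SD, n = 2). Igfbp3, the main carrier of IGFs in adult serum (chr11:7206086-7213923, minus strand), lay between them with 209 TPM in replicate 1 against 202 TPM in replicate 2, a mean of 206 ± 4.85 (SD, n = 2).

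Igfbp7 and Igfbp6 were the members higher in replicate 2. Igfbp7, a low-affinity family member found in the walls of blood vessels (chr5:77349240-77408041, minus strand), had 69.3 TPM in replicate 1 against 90.3 TPM in replicate 2, a mean of 79.8 ± 14.8 (SD, n = 2). Igfbp6, which prefers IGF2 over IGF1 (chr15:102144362-102149511, plus strand), had 12.1 TPM in replicate 1 against 15.3 TPM in replicate 2, a mean of 13.7 ± 2.22 (SD, n = 2), and rested on 242 and 394 counts, the fewest of the members. Igfbp7 shares 85 exonic bases with Polr2b on the opposite strand, where reads cannot be assigned without the strand. Igfbp6 made up 0.752% of binding protein TPM in replicate 1 and 1.04% in replicate 2.

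From the highest to the lowest, the order by mean TPM was Igf2, Igfbp4, Igfbp2, Igfbp3, Igf1, Igfbp5, Igfbp7, Igf2r, Igfbp6 and Igf1r. The ranges over both libraries overlapped for 2 pairs of neighbours in this order, Igf1 with Igfbp5 and Igfbp6 with Igf1r, whose order is therefore not resolved. The widest step was from Igf2r to Igfbp6, a ratio of means of 3.96, and the narrowest among those whose ranges did not overlap was from Igfbp5 to Igfbp7, a ratio of 1.32.

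Of the 10 members, 0 differed by 1.5-fold or more between the libraries on log2(TPM + 1), where 2.5% of 11482 genes with a mean of 5 TPM or more did (1.29% higher in replicate 1 and 1.21% higher in replicate 2). At so small a background share, 0 of 10 is no sign of stability particular to these genes. At a looser rule, a difference of 0.32 or more on the log2 scale, 1 member, Igfbp7, did so, where 16.2% of genes did. The median gene had a log2 ratio of replicate 1 over replicate 2 of 0.15, so each member is also given relative to it. The median of the members was 0.09. By deposited TPM, 8 members were higher in replicate 1 and 2 in replicate 2, whereas relative to the median gene 4 lay above and 6 below. The sign for Igf2, Igfbp3, Igfbp2 and Igf2r turned with that centring and with scaling by TMM or DESeq2 size factors, and for Igf2 and Igfbp3 also with FPKM.

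**Figure D2:**
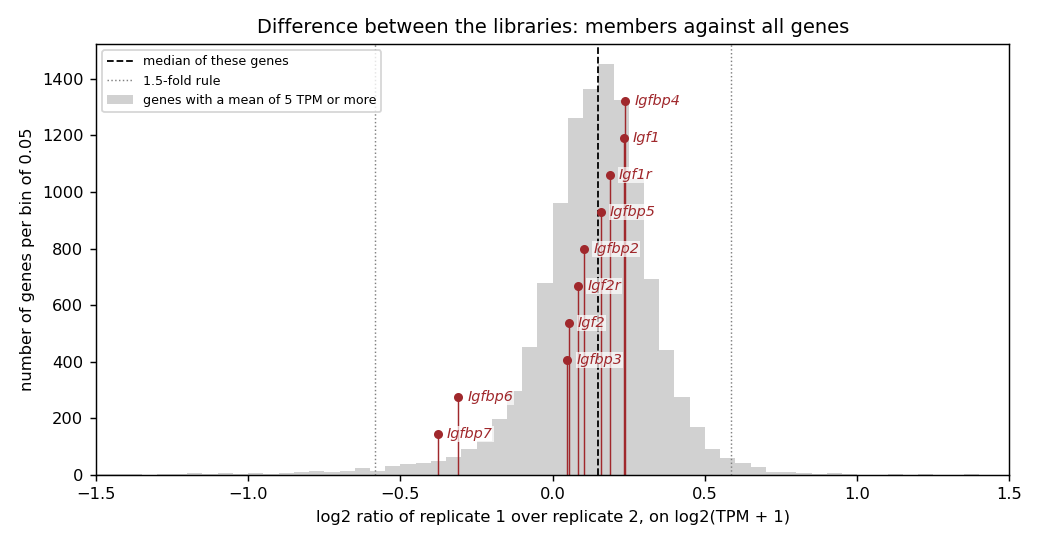
Number of genes by log2 ratio of replicate 1 over replicate 2 (grey), with each member as a red stem whose height only separates the names. The dashed line is the median of all genes and the dotted lines are the 1.5-fold rule; 8 members lie near the median, and Igfbp7 and Igfbp6 lie to its left.

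The log2 ratio of Igfbp7 was -0.38, or -0.52 relative to the median gene, and 2.48% of genes had a lower ratio. Its CPM (expected counts scaled to library size) in replicate 1 was 0.725 of that in replicate 2, with a counting interval from 0.678 to 0.775. The log2 ratio of Igfbp6 was -0.31, or -0.46 relative to the median gene, and 3.16% of genes had a lower one. Its CPM in replicate 1 was 0.750 of that in replicate 2, with a wider interval from 0.636 to 0.882. Both stayed negative under the pseudocount of 0.1, FPKM, TMM and DESeq2 scaling. The remaining members had log2 ratios from 0.05 for Igfbp3 to 0.24 for Igfbp4.

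Markers of other tissues also differed between the libraries. Skeletal muscle markers, 2 of 5 of them past 1.5-fold, and bone markers, 0 of 5 past it, also summed to more in replicate 2. Within these lists Myog went slightly the other way, at 177 and 170 TPM, and Runx2 was nearly level at 21 and 21.5 TPM. The 4 endothelial markers summed to slightly less in replicate 2, with 0 of 4 past 1.5-fold. The 5 surface epithelium markers summed to 655 and 668 TPM, with 0 of 5 past it. Choroid plexus and leptomeningeal markers summed to 10.3 TPM in replicate 1 against 78.3 TPM in replicate 2. Most of that sum in replicate 2 was Ttr, a carrier protein made by choroid plexus and liver, with 0.45 and 60.2 TPM. Of the 5, 2 had a mean of 5 TPM or more, Ttr and Foxj1, and both were past 1.5-fold. Folr1, below that mean, went the same way, and Kl was level at 0.29 and 0.31 TPM. The blood markers did not move one way: the adult globin Hbb-bs had 6073 TPM in replicate 1 against 7921 TPM in replicate 2, whereas the embryonic globin Hbb-y, past 1.5-fold, had 1152 and 283 TPM. The part of these markers in the values of Igfbp7 and Igfbp6 was not tested.

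The transcripts of Igf2 share their coding exons and differ in the first exon, which is set by the promoter used. In the mouse, P1, P2 and P3 are the fetal promoters, and a further promoter, P0, described in the placenta, lies upstream of them. The names P1 to P3 are given here to the leader exons from background knowledge of the mouse gene, as the annotation used carries no promoter names. By TPM, the transcript with the largest share carried none of these leader exons. Igf2-208, annotated as a noncoding processed transcript of 958 bases inside the 3-prime region of the gene, held 44.0% of Igf2 TPM in replicate 1 and 43.1% in replicate 2, and 27.1% and 26.2% of Igf2 counts. No exonic base belongs to Igf2-208 alone, so its share rests on reads that the other models also contain, apart from its splice junction.

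Igf2-203, a coding model of 650 bases that starts at the most upstream leader exon (41 bases, chr7:142666776-142666816), held 28.5% of TPM in replicate 1 and 28.7% in replicate 2. By counts it held 11.3% and 11.2%. The 41-base exon is the only stretch of Igf2-203 that no other model covers. The 4 placental markers had 0 counts in both libraries, while the model with this upstream leader was assigned 336 TPM in replicate 1 against 326 TPM in replicate 2. A further leader exon upstream of P1, of 60 bases (chr7:142661811-142661870), had 1.67 TPM in replicate 1 against 1.75 TPM in replicate 2. Whether either exon comes from P0 cannot be read from these files.

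The P2 and P3 leaders gave the long models with the larger shares, while the long P1 model, Igf2-204 of 3970 bases, held little. Igf2-205, with the leader exon of 1126 bases of P2 (chr7:142658364-142659489) and 4722 bases in all, held 10.7% of TPM in replicate 1 and 11.3% in replicate 2, but 35.4% and 36.8% of counts, the largest share by that measure. The P3 leader (chr7:142657388-142657496, Igf2-202 and Igf2-201) held 14.3% of TPM in replicate 1 and 14.2% in replicate 2, and 25.2% and 24.7% of counts, nearly all of it from Igf2-202 with 13.7% of TPM in each library. The P1 leader held 2.24% of TPM in replicate 1 and 2.37% in replicate 2. Most of the P1 share was the retained-intron model Igf2-206 with 2.14% and 2.30%, while the coding model Igf2-204 held 0.09% and 0.07%.

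**Figure D3:**
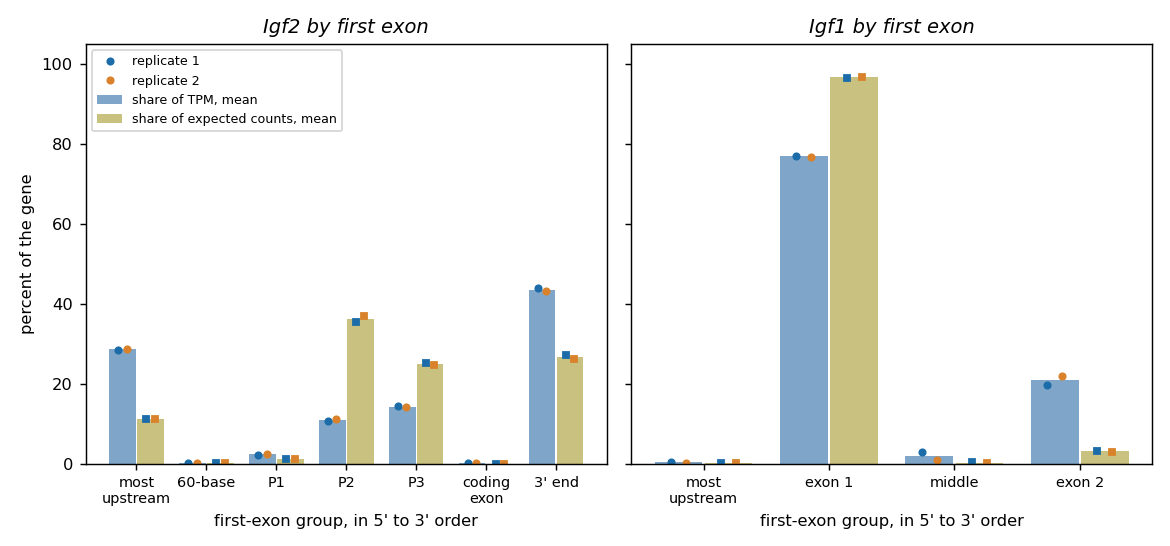
Percent of the gene's TPM (blue bars, circles) and of its expected counts (yellow bars, squares) by first-exon group, as the mean of both libraries with each library as a point, for Igf2 (left) and Igf1 (right). The points of the libraries nearly coincide, while the bars of TPM and counts differ: for Igf2 the 3-prime group leads by TPM and P2 by counts.

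The order of the promoters thus depends on the measure, while the libraries differ little within a measure. Among the leader-bearing models alone, an alternative added after the data were seen, the most upstream leader held 50.8%, P3 25.3% and P2 19.5% of TPM on average. The short models take a larger share per length than per read, as the lengths of 650 and 958 bases against 4722 bases fix. Which measure is nearer to promoter use was not tested.

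Summed over the models, TPM was uneven along the gene. The coding exons shared by the leader-bearing models carried 634 TPM in replicate 1 against 620 TPM in replicate 2 over 97 bases of the second coding exon. A stretch of 530 bases in the 3-prime region carried 134 TPM in replicate 1 against 136 TPM in replicate 2, and it flanks a stretch of 176 bases with 653 and 625 TPM. A stretch of 782 bases near the end carried 814 and 780.4 TPM. The stretches of 176 and 782 bases are the exons of Igf2-208. Each sum adds the TPM assigned to the models that contain the stretch, so it restates the assignment and is no separate evidence for Igf2-208. Restricted to protein-coding models, Igf2 had 634 TPM in replicate 1 against 620 TPM in replicate 2, a mean of 627 ± 10.3 (SD, n = 2), and was still the highest member.

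**Figure D4:**
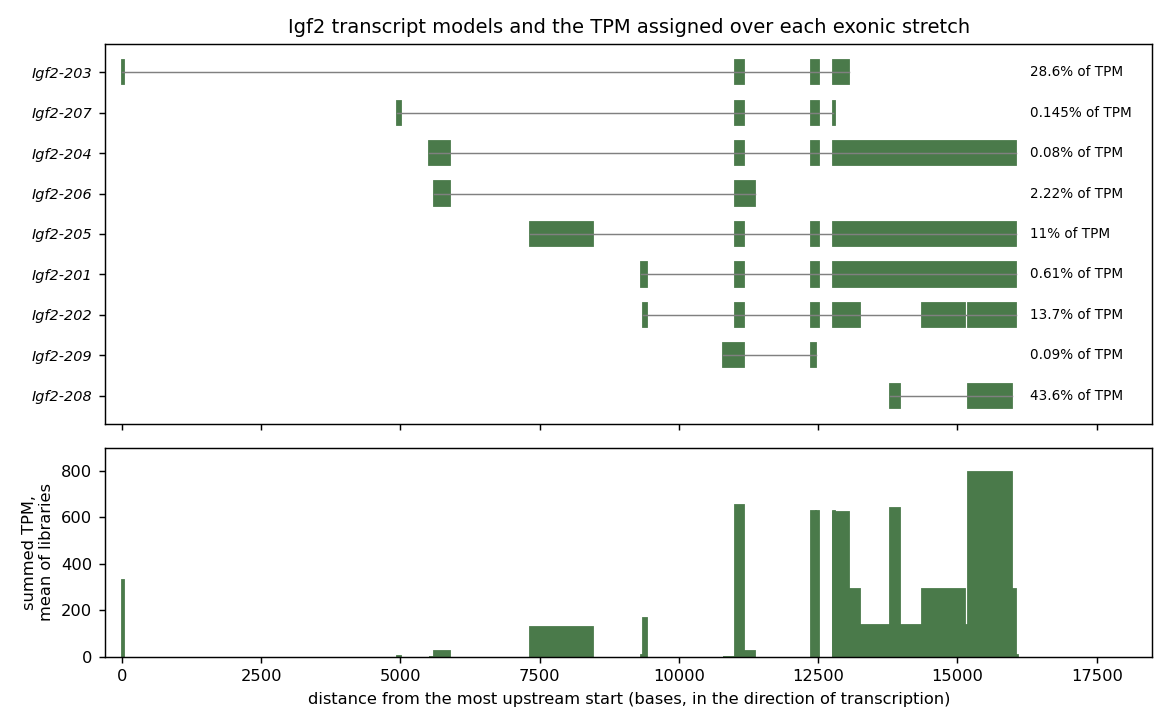
Exon models of the Igf2 transcripts (upper panel, green boxes, with each model's mean share of TPM) and the mean TPM summed over the models at each exonic stretch (lower panel), against distance in bases from the most upstream start. Between the coding exons and the end of the gene the lower panel is high over both stretches that Igf2-208 covers and lower around them. The lower panel adds the TPM assigned to each model and shows no read coverage.

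Other features overlap Igf2. The later annotation places the exons of Gm49394 on the same strand over 3596 bases of Igf2 exons, and this gene is not among the deposited features used here. Igf2os, an RNA on the opposite strand, shares 98 exonic bases, and since the strand handling is not given in the sources used here, reads there cannot be assigned to either. Mir483, a microRNA gene in an intron of Igf2, is listed with 0 counts at an effective length of 0, so these libraries do not measure it.

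Igf1 has alternative leader exons 1 and 2, each with its own start sites, and leader exon 2 is used more in adult liver than in most other tissues. In the face leader exon 1 (chr10:87859068-87859412) carried 77.0% of Igf1 TPM in replicate 1 and 76.8% in replicate 2, and 96.5% and 96.8% of counts. Leader exon 2 (chr10:87860030-87861385) carried 19.7% of TPM in replicate 1 and 22.0% in replicate 2, but 3.06% and 3.0% of counts. Leader exon 1 led by either measure, as the reads were assigned. Of the Igf1 models only Igf1-202, which has leader exon 1, extends past 73536 bases from the most upstream start, to 78777 bases. Reads from that stretch go to Igf1-202 whatever their leader exon, so the shares are no direct measure of leader use.

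The leading Igf1 models were of very unequal length. Igf1-202, with leader exon 1 and 7052 bases, held 72.5% of TPM in replicate 1 and 72.6% in replicate 2. Igf1-206, with leader exon 2 and 651 bases, held 14.8% of TPM in replicate 1 and 18.9% in replicate 2, on 203 and 283 expected counts. The first exon that lies between leader exons 1 and 2 held 2.81% and 1.02%, and the most upstream first exon, that of Igf1-207, 0.469% and 0.206%.

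A short internal exon of Igf1 decides the E peptide, the tail that is cut from the IGF1 precursor. It is 52 bases long (chr10:87915298-87915349), all coding in Igf1-203, which leaves 1 base beyond whole codons and so shifts the frame behind it. It is shown because including it gives the Eb form in rodents, also known as mechano growth factor, and skipping it the Ea form.
Igf1, internal exon: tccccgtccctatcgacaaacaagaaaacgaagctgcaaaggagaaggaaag
Models with this exon inside held 19.4% of Igf1 TPM in replicate 1 and 23.1% in replicate 2, and 2.90% and 3.22% of counts. Models without it held 78.6% of TPM in replicate 1 and 75.3% in replicate 2. A further 2.07% and 1.64% came from a model that ends in this exon. Skipping was the main form by TPM and by counts, in both libraries. Both measures come from the same assignment of reads. Reads of the long 3-prime end that only Igf1-202 contains count as skipping whatever form they came from. Igf1-202, which lacks the exon, held 95.1% of counts in replicate 1 and 95.6% in replicate 2. Igf1-206, with 14.8% and 18.9% of TPM, gave most of the TPM share with the exon inside. It also carries leader exon 2, so the TPM shares of the exon and of leader exon 2 largely rest on the same model.

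The other members were simpler, except Igfbp4. Of all 10 members, 7 had a top transcript with 90% or more of their TPM. Igf1r and Igfbp6 have 1 model each, and the top models of Igfbp2, Igfbp3, Igfbp5, Igfbp7 and Igf2r held from 94.9% (Igf2r in replicate 2) to 99.9% (Igfbp2 in replicate 2). The top model of Igfbp4 was Igfbp4-203, a processed transcript without a coding sequence and of 785 bases, with 55.01% of TPM in replicate 1 and 53.4% in replicate 2 but 18.8% and 18.3% of counts. The coding model Igfbp4-201, of 3831 bases, held 43.4% and 43.3% of TPM and 80.9% and 81.0% of counts.

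The lead of Igfbp4 over Igfbp2 rested on that noncoding model. From protein-coding models alone, Igfbp4 had 379 TPM in replicate 1 against 333 TPM in replicate 2, a mean of 356 ± 32.9 (SD, n = 2). Igfbp2 had 364 TPM in replicate 1 against 339 TPM in replicate 2 by the same measure, a mean of 352 ± 17.8, and the ranges overlapped. A stretch of 144 bases of Igfbp4 is 95.1% identical to Ctdspl2, so reads there may be split between them.

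Of the 7 relatives, 1 was expressed. Insr, the insulin receptor, had 24.3 TPM in replicate 1 against 21.8 TPM in replicate 2. Of this, 82.7% in replicate 1 and 83.4% in replicate 2 was the retained-intron model Insr-202, and the coding model Insr-201 held 4.19 and 3.61 TPM. By protein-coding models the insulin receptor thus lay below Igf1r in both libraries. By all transcripts it lay above Igf1r, which had 12.8 TPM in replicate 1 against 11.1 TPM in replicate 2. Expected counts gave the same order as all transcripts, with 1389 and 1581 for Insr against 1108 and 1244 for Igf1r. Counts are not divided by length, and the deposited coding models have 9355 bases for Insr and 4489 bases for Igf1r. The order by counts is therefore no separate evidence of abundance. Neither Insr model in the later annotation has an exon of the length of the alternatively spliced exon, so the A and B forms could not be told apart.

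The ligand insulin was at or near 0. Ins1 had 0 counts in both libraries and Ins2 had 2 counts in replicate 1 and 0 in replicate 2. Insrr, the orphan receptor of the family, had 1.31 TPM in replicate 1 against 0.88 TPM in replicate 2. Igfbp1, the liver binding protein, had 0.43 and 0.30 TPM, Igfbpl1, a related secreted protein, 0.57 and 0.70 TPM, and Igfals, the subunit that holds IGFs in the large serum complex, 0.20 and 0.33 TPM.

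Regulators of the binding proteins were expressed in 6 of 7 cases, with 0 of the 3 at a mean of 5 TPM or more past 1.5-fold. Htra1, a secreted protease that cleaves IGF binding proteins, led with 94.4 TPM in replicate 1 against 101 TPM in replicate 2. Its relative Htra3 had 34.3 and 35.3 TPM, and Stc1, a stanniocalcin, had 7.22 and 6.19 TPM. Htra4 had 0.35 TPM in replicate 1 and 0 in replicate 2.

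Growth hormone controls Igf1 after birth through its receptor and STAT5. Of the 8 genes of this axis 5 were expressed and 0 of the 4 at a mean of 5 TPM or more passed 1.5-fold. Ghr, the receptor, had 51.5 TPM in replicate 1 against 44.1 TPM in replicate 2, Socs2, its feedback inhibitor, 50.3 and 43.2 TPM, and Stat5b 19.3 and 19.9 TPM. Gh itself had 0 counts in both libraries.

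Downstream of the receptors, 10 of 11 adaptors, 12 of 13 genes of PI3K and Akt and 12 of 12 of mTOR and Foxo were expressed, and 0 passed 1.5-fold. Grb10, an imprinted adaptor that restrains IGF and insulin receptors, led the adaptors with 208 TPM in replicate 1 against 180.4 TPM in replicate 2. Shc1 and Grb2, which link receptors to Ras, had 59.8 and 56.9 TPM and 51.4 and 48.4 TPM, and Irs3 was lowest at 0.11 and 0.16 TPM. Transcripts of Grb10 thus exceeded those of Igf1r by far in both libraries.

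Akt2 had 98.95 TPM in replicate 1 against 86.4 TPM in replicate 2, Akt1 61.8 and 63.8 TPM, and Pik3r2, a regulatory subunit of PI3K, 56.9 and 46.9 TPM, while the catalytic subunit Pik3cb was lowest at 1.19 and 0.95 TPM. Rheb, the GTPase that activates mTOR, had 163 TPM in replicate 1 against 146 TPM in replicate 2, Eif4ebp1, a translation repressor that mTOR phosphorylates, 134 and 139.8 TPM, and the kinase Rps6kb1 53.2 and 45.6 TPM. Foxo4 was the lowest of that list at 3.99 and 3.48 TPM.

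Of 8 genes that bind Igf2 mRNA or process the precursor, 6 were expressed. Igf2bp2, of the family of proteins that bind Igf2 mRNA, had 66.0 TPM in replicate 1 against 57.0 TPM in replicate 2, and Igf2bp3 44.5 and 33.7 TPM. Igf2bp1 had 24.5 TPM in replicate 1 against 14.2 TPM in replicate 2, a log2 ratio of 0.75, and was the only one past 1.5-fold of the 50 pathway genes with a mean of 5 TPM or more. Lin28a, an RNA-binding protein of stem cells, was lowest at 0.03 TPM in replicate 1 and 0 in replicate 2. Cartilage markers, at 759 TPM in replicate 1 against 438 TPM in replicate 2, were also higher in replicate 1, with 4 of 5 past 1.5-fold, and their part in the Igf2bp1 difference was not tested.

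Among the imprinted neighbours 3 of 7 were expressed, and 5 of 7 in replicate 1 alone, where Mas1 and Slc22a3, named after their values were seen, had 1.68 and 1.16 TPM against 0.75 and 0.63 TPM in replicate 2. H19, the noncoding RNA next to Igf2 that is expressed from the maternal allele, had 1004 TPM in replicate 1 against 1051 TPM in replicate 2, and the ratio of Igf2 to H19 was 1.17 in replicate 1 and 1.08 in replicate 2 by the TPM of all transcripts. The order depends on the measure: from protein-coding models alone Igf2, at 634 and 620 TPM, lay below H19 in both libraries, and by expected counts it was above H19 in replicate 1 (32436 against 31459) and below it in replicate 2 (40977 against 42178). Airn, the noncoding RNA that silences paternal Igf2r, had 35.8 and 28.6 TPM. Igf2os had 2.93 and 2.66 TPM, and Nctc1 was lowest at 0.04 and 0.08 TPM.

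Igf2r also sorts lysosomal enzymes that carry the mannose 6-phosphate tag, and all 4 of the 4 other genes listed for that pathway were expressed. M6pr, the smaller receptor for the same tag, had 71.2 TPM in replicate 1 against 66.0 TPM in replicate 2, above Igf2r. Gnptg, Nagpa and Gnptab make the tag. Gnptg had 28.1 and 24.5 TPM, Nagpa 15.2 and 11.3 TPM, and Gnptab was lowest at 7.62 and 6.98 TPM. Over all lists 59 of 77 pathway genes were expressed, with a median log2 ratio of 0.14, near the 0.15 of all genes.

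**Figure D5:**
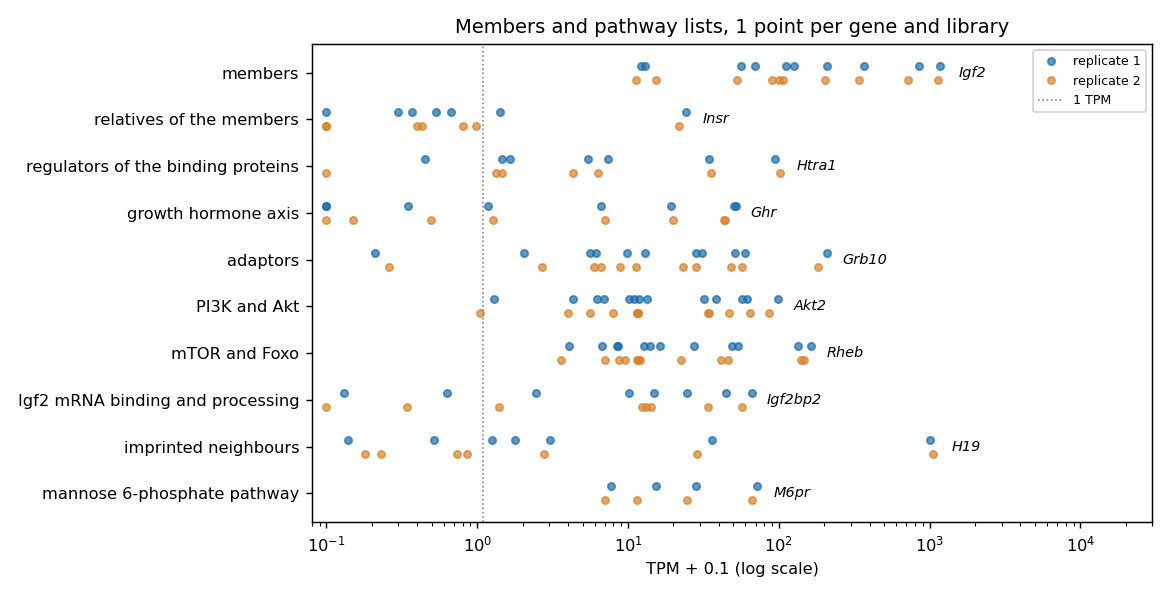
TPM + 0.1 on a log axis for every gene of the members and of the pathway lists, 1 point per gene and library, with replicate 1 above replicate 2 and the highest gene of each list named. The members lie above 10 TPM, the relatives mostly under the dotted line at 1 TPM, and H19 is the only pathway gene near Igf2.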

How the data were processed

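Total RNA-seq tables of 2 libraries of 1 group were used. Expected counts (estimated reads per gene or transcript), TPM, FPKM and the percent of a gene's TPM held by each transcript are the authors' values, per the file headers, and are of the RSEM kind. The companion texts name mm10 and GENCODE M4. The deposited TPM is scaled over all features, spike-ins and other non-Ensembl sequences included, which held 7.22% of TPM in replicate 1 and 11.7% in replicate 2. The aligner, the version of the quantifier and the strand setting were not given in the sources used here. For 5 of 10 members in each library the deposited TPM lies outside the deposited TPM bounds. The deposited posterior mean TPM lies inside those bounds for every member. Counting intervals were computed from the counts in place of the bounds. They leave out the uncertainty of assigning reads and can be narrower. For Igf1 in replicate 1 the counting interval was 124 to 128 TPM, against deposited bounds of 118 to 129 TPM.

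Names, transcript models and positions came from GENCODE M21 (GRCm38), matched by identifier, and promoter windows from RefSeq. The models of Igf1r and Igfbp7 differ in length between releases, and 1 Igf2r transcript was not matched. Transcripts were grouped by the end of the first exon, and shares of expected counts were set beside those of TPM. Ratios used log2(TPM + 1), and genes with a mean of 5 TPM or more formed the background. Ratios of CPM have exact binomial intervals. Scaling factors came from edgeR 4.0.16 and DESeq2 1.42.0 in R 4.3.3, on rounded expected counts. Similar sequences were searched with BLAST 2.17.0. The scripts ran in Python 3.11.15 with pandas 2.3.3, numpy 2.4.6 and scipy 1.17.1, and plots used matplotlib 3.10.9.

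The text names all 10 members, all relatives, the 3 highest and the lowest gene of each pathway list, each past 1.5-fold, and the transcripts of Igf1, Igf2 and Insr with 5% or more or the top one of other members. Members and lists were chosen with earlier results of these data known. The fold rule was tested on simulated data.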

Additional observations from a re-analysis of the deposited data

How the results depend on the processing

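All 10 members were expressed under each of the other thresholds and units tried and with either library left out. At the looser rule of 0.32 on the log2 scale 1 member, Igfbp7, differed between the libraries, and under 2-fold and under the other scalings, pseudocounts and filters tried 0 did. Of the pathway lists, the imprinted neighbours had 5 genes expressed in place of 3 at 0.5 TPM and without replicate 2, the relatives 3 at 0.5 TPM and 2 without replicate 2 in place of 1, and the regulators of the binding proteins 3 in place of 6 at 5 TPM. With CPM, which does not divide by length, 8 members changed place in the order of levels. With either library left out, 0 to 2 changed place. By FPKM 1 pair of neighbours overlapped. The shares of the first exons moved most. As shares of expected counts the most upstream Igf2 leader held 11.2%, P2 36.1%, P3 24.9% and the 3-prime group 26.6% on average, Igf1 leader exons 1 and 2 held 96.6% and 3.03%, and models with the short Igf1 exon 3.06%. From protein-coding models alone the most upstream Igf2 leader held 52.8%, P2 20.3% and P3 26.3%, and from leader-bearing models alone 50.8%, 19.5% and 25.3%. With posterior mean TPM Igf1 leader exon 1 held 76.4%. Grouping by start within 100 bases gave Igf1 leader exons 1 and 2 shares of 72.5% and 16.8%. The cause was not tested, beyond that count shares are not divided by length and that restricted sets have fewer models. The shares of the Insr forms were not run, since no model has the alternatively spliced exon. Removing models with incomplete ends, coding-only levels and leader-bearing models were chosen after seeing the data. No paired analysis was possible because there is 1 group. With 2 libraries, leaving either out returns the other library's value, and the spread has 1 degree of freedom.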
